A study of Mus musculus with 37 samples.

Results

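The Nrf2 antioxidant response genes followed here are 10 genes chosen by name: Nfe2l2, which encodes the transcription factor Nrf2, its inhibitor Keap1, and 8 genes that Nrf2 is known to activate (Hmox1, Nqo1, Gclc, Gclm, Txnrd1, Srxn1, Slc7a11 and Prdx1). All 10 were found by symbol among the 24016 genes of the expression table, and all 10 were among the 10487 genes analyzed. PolyA RNA-seq had been performed on bone marrow-derived macrophages (BMDMs) of male mice aged 6 to 9 weeks, either C57BL/6J (WT) or Arntl-/- on a C57BL/6 background. The authors call the WT mice littermates in their results, whereas their methods name C57BL/6J mice of a commercial supplier. The BMDMs were grown for 6 days with M-CSF and then exposed to Kdo2-lipid A (KLA), a defined part of bacterial lipopolysaccharide that activates TLR4. Arntl encodes the clock protein Bmal1, and the deletion was carried by the mice, not induced in culture. There were 8 libraries, 1 for each of the 2 genotypes at 0, 6, 24 and 48 h after KLA, and the number of mice behind a library was not given in the sources used here.

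Nrf2 is held at a low level in resting cells because Keap1 marks it for degradation, and oxidants or electrophiles that modify Keap1 let Nrf2 enter the nucleus, pair with a small Maf protein and bind antioxidant response elements (AREs) near its target genes. The targets make glutathione, reduce oxidized proteins and peroxides, detoxify quinones and break down heme. Because Nrf2 is controlled mainly through its stability, the level of its mRNA is not a measure of its activity. In macrophages the pathway is known for limiting oxidative damage during inflammatory activation.

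With 1 library per condition, no difference below has a replicate check and no test between conditions was made. Values are FPKM per 10000000 reads divided by a size factor for each library (scaled FPKM), and a difference was counted when it reached 1.5-fold. The 95% counting intervals given with log2 ratios are exact binomial intervals from the reads behind the values, and they cover counting error alone. Libraries held between 8587560 and 27036785 reads on genes, the deepest being WT at 6 h and the shallowest Arntl-/- at 48 h, and at least 369 reads lay behind every value of the 10 genes. Arntl itself lay between 32.3 and 38.7 scaled FPKM in the WT libraries and between 11.3 and 20.2 in the Arntl-/- libraries, without overlap. Markers that define macrophages were high in every library, with a sum of at least 16680 scaled FPKM for the 10 of 11 listed markers found. Markers of other cell types were present too, and their sums are given beside Nqo1.

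Depth moved with the values of highly expressed genes. The 1049 most highly expressed genes had a median log2 deviation from the 8-library mean of -0.35 in the deepest library and of 0.30 and 0.25 in both shallow 48 h libraries (WT and Arntl-/-). Of the 10 genes, 6 were among those 1049 (Hmox1, Prdx1, Txnrd1, Nfe2l2, Srxn1 and Gclm). Hmox1 had 4.07 to 8.40 reads per exon base and Prdx1 4.31 to 7.50, each highest in WT at 6 h, and the counting was set to keep at most 3 tags per position. On both strands that would allow 6 tags per base, fewer than the highest of these values, so how the setting acted on the recovered reads is not known, and the part of depth or of this setting in the results was not tested. The comparisons of the 10 genes were therefore also made after a correction that removes each library's trend with expression level, giving the expression-corrected value.

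The promoters of the 10 genes were searched because Bmal1 and Nrf2 bind known DNA motifs. In the 500 bases before the deposited start site (mm9, both strands), the core of the ARE, TGACNNNGC, occurred in 4 of the 10 promoters (Nfe2l2, Gclm, Txnrd1 and Prdx1), against 18.3% of the 23949 promoters of the table. The E-box CACGTG, the motif of Bmal1 and its partner Clock, occurred in 1 of the 10 (Hmox1), against 10.4% of all promoters. The AP-1 motif TGANTCA, which can lie within an ARE, occurred in 2 (Srxn1 and Prdx1), against 12.2%. The matches are printed with 40 bases on each side where the window allows, to show where these 2 motifs lie relative to the genes described here. Each is printed on the strand of its gene, which is the minus strand of mm9 for Nfe2l2 and the plus strand for the others shown. Capitals mark the match, which for Gclm, Txnrd1 and Prdx1 is the ARE core of the strand opposite to the printed one. The Prdx1 match overlaps an AP-1 motif. A match describes the letters alone and is not evidence of binding, and an ARE farther than 500 bases from a start would not be seen.
Nfe2l2, ARE core, chr2:75542912-75543000: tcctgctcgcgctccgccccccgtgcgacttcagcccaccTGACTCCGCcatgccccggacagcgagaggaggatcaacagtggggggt
Gclm, ARE core, chr3:121948301-121948389: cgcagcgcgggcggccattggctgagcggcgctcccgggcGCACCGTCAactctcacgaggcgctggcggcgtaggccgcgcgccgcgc
Txnrd1, ARE core nearest the start, chr10:82321819-82321907: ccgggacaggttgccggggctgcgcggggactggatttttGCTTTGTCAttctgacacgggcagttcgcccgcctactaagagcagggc
Prdx1, ARE core, chr4:116358031-116358119: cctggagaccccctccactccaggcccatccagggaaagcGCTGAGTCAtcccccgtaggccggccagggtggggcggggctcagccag
Hmox1, E-box, chr8:77617434-77617516: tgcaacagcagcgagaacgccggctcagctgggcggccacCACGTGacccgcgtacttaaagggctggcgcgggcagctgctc

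On the scaled FPKM scale, which is per length of exon, the heme oxygenase gene Hmox1 (median 2254 over the 8 libraries, range 1720 to 4568) and the peroxiredoxin gene Prdx1 (median 2087, range 1534 to 4552) were the most highly expressed, and their ranges overlapped each other and no other member's. Txnrd1 (868), Nfe2l2 (753), Srxn1 (485) and Gclm (452) followed, with ranges that overlapped between each pair of neighbors. Keap1 (202), Slc7a11 (157), Nqo1 (149) and Gclc (142) were lowest, also with overlapping ranges, and the highest Nqo1 value exceeded the lowest Gclm value.

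The regulators behaved differently from each other. Nfe2l2 (NM_010902, chromosome 2 of mm9, 75513576 to 75542698, minus strand) had a scaled FPKM of 578, 569, 933 and 827 at 0, 6, 24 and 48 h in WT cells and of 638, 679, 959 and 1062 in Arntl-/- cells. It was therefore highest at 24 h in WT and at 48 h in Arntl-/- cells, with both genotypes above their 0 h value from 24 h on. After the expression correction Nfe2l2 was highest at 24 h in both genotypes, at 881 in WT and 986 in Arntl-/- cells. The corrected Arntl-/- value at 48 h was 915. Keap1 (NM_001110307, chromosome 9, 21034174 to 21043776, minus strand), the adaptor that delivers Nrf2 to a ubiquitin ligase, had values of 153, 203, 201 and 230 in WT and of 161, 204, 197 and 232 in Arntl-/- cells. Both Keap1 series were lowest at 0 h and highest at 48 h, and the genotypes nearly coincided at every time.

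Of the 3 genes for glutathione synthesis, Slc7a11 was higher at every later time in both genotypes, Gclm was higher from 24 h on in both, and Gclc changed least in WT cells. Slc7a11 (NM_011990, chromosome 3, 50168858 to 50247535, minus strand), the cystine importer that supplies cysteine for glutathione, had values of 78.4, 121, 197 and 289 in WT and of 81.9, 137, 178 and 277 in Arntl-/- cells. The order of times was the same in both genotypes, 0 h below 6 h below 24 h below 48 h. Gclm (NM_008129, chromosome 3, 121948475 to 121970133, plus strand), the modifier subunit of glutamate-cysteine ligase, had values of 423, 424, 645 and 985 in WT and of 311.5, 383, 480.4 and 991 in Arntl-/- cells. Its WT series was level from 0 to 6 h, and its Arntl-/- series started lower and met the WT series at 48 h. After the expression correction the Gclm values at 0 and 6 h were 426 and 492 in WT and 339 and 380 in Arntl-/- cells. The WT series was then no longer level from 0 to 6 h. Gclc (NM_010295, chromosome 9, 77602342 to 77642296, plus strand), the catalytic subunit of the same enzyme, had values of 146, 139, 147 and 157 in WT and of 125, 110, 112 and 163 in Arntl-/- cells. The highest WT value of Gclc was 1.14 times the lowest, the smallest span of the 10 genes in WT cells, and in Arntl-/- cells the highest was 1.49 times the lowest.

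The thioredoxin branch was represented by Txnrd1, Srxn1 and Prdx1, all highest at 48 h in both genotypes. Txnrd1 (NM_001042513, chromosome 10, 82321951 to 82360469, plus strand), the cytosolic thioredoxin reductase, had values of 865, 802, 984 and 1284 in WT and of 728, 870, 759 and 1218 in Arntl-/- cells. Srxn1 (NM_029688, chromosome 2, 151931260 to 151937112, plus strand), the sulfiredoxin that restores overoxidized peroxiredoxins, had values of 489, 474.5, 650.4 and 1039 in WT and of 384, 437, 481 and 865 in Arntl-/- cells, the latter lower at each of the 4 times. Prdx1 (NM_011034, chromosome 4, 116358204 to 116372605, plus strand), an abundant cytosolic peroxidase, had values of 2162, 1534, 2576 and 4552 in WT and of 1665, 2011, 1991 and 3978 in Arntl-/- cells. The dip of Prdx1 at 6 h in WT cells was not seen after the expression correction, when the WT values at 0 and 6 h were 2175 and 2324.

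Hmox1 followed Prdx1 closely, and Nqo1 had the largest genotype ratio of the 10 genes at 0, 6 and 24 h, though not at 48 h, when that of Nfe2l2 was larger. Hmox1 (NM_010442, chromosome 8, 77617517 to 77624492, plus strand), which degrades heme to biliverdin, carbon monoxide and iron, had values of 2357, 1720, 2427 and 4568 in WT and of 1820, 2151, 1949 and 4024 in Arntl-/- cells. Its dip at 6 h in WT cells likewise was not seen after the expression correction, with 2372 at 0 h and 2620 at 6 h. Nqo1 (NM_008706, chromosome 8, 109912125 to 109927105, minus strand), a quinone reductase widely used as a readout of Nrf2, had values of 159, 139, 161 and 338 in WT and of 86.9, 94.1, 118 and 279.9 in Arntl-/- cells. At each time the Arntl-/- value of Nqo1 was the lower, but the genotypes' ranges overlapped because the 48 h value of Arntl-/- cells exceeded the earlier WT values.

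**Figure D1:**
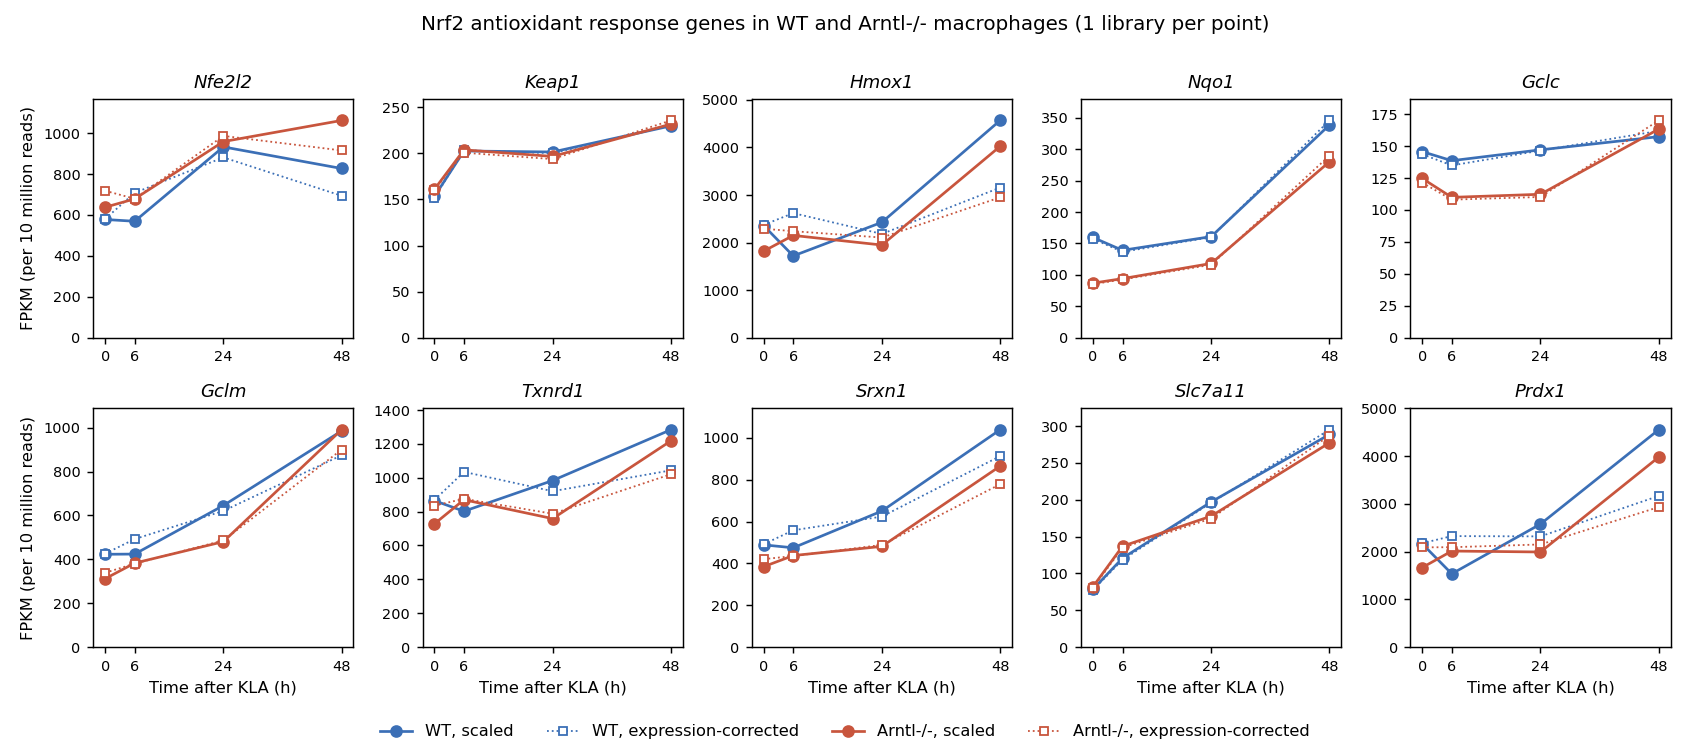
Scaled FPKM (filled circles, solid lines) and expression-corrected FPKM (open squares, dotted lines) of the 10 genes against hours after KLA, 1 library per point, with WT in blue and Arntl-/- in red. Slc7a11 climbs through all 4 times in both genotypes, Nqo1 climbs between 24 and 48 h, and the dip of Hmox1 and Prdx1 in WT cells at 6 h is present only in the scaled values.

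The response to KLA was read within each genotype against its own 0 h library, so the comparisons of a genotype share that library. At 6 h, 1 of the 10 genes was at least 1.5-fold higher in each genotype and none was lower. That gene was Slc7a11 in both, with a log2 change of 0.62 (counting interval 0.54 to 0.70) in WT and 0.74 (0.66 to 0.82) in Arntl-/- cells. By that fold, 5.36% of all genes were higher and 3.59% lower in WT cells, whereas in Arntl-/- cells 3.09% were higher and 3.39% lower. Keap1 was 1.32-fold higher in WT and 1.27-fold higher in Arntl-/- cells, short of the threshold. The sign of the change differed between the genotypes for 6 of the 10 genes, and for 3 of them (Hmox1, Prdx1 and Txnrd1) both counting intervals excluded 0, with log2 changes of -0.45, -0.49 and -0.11 in WT and of 0.24, 0.27 and 0.26 in Arntl-/- cells. After the expression correction these became 0.14, 0.10 and 0.25 in WT and -0.03, 0.00 and 0.07 in Arntl-/- cells, so neither direction of this difference held in both versions. Without the correction, the median log2 change of the 1049 most highly expressed genes was -0.35 in WT and 0.18 in Arntl-/- cells. Its sign thus differed too, and the share of all genes with opposite signs was not counted.

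At 24 h, 3 of the 10 genes were at least 1.5-fold higher in each genotype and none was lower, against 8.69% of all genes higher and 8.83% lower in WT cells. In Arntl-/- cells 7.8% of all genes were higher and 9.57% lower. They were Slc7a11, Gclm and Nfe2l2 in both genotypes. Slc7a11 was 2.51-fold higher in WT and 2.17-fold higher in Arntl-/- cells. Gclm was 1.53-fold and 1.54-fold higher, and Nfe2l2 1.61-fold and 1.5-fold. After the expression correction, Slc7a11 and Nfe2l2 remained past the threshold in WT cells, at 2.53-fold and 1.52-fold, and in Arntl-/- cells Slc7a11 alone remained, at 2.17-fold. The others came to lie under the line, Gclm at 1.46-fold in WT and 1.43-fold in Arntl-/- cells and Nfe2l2 at 1.37-fold in Arntl-/- cells.

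At 48 h most of the 10 genes were higher in both genotypes. In WT cells 6 of the 10 genes were at least 1.5-fold higher and none was lower, where 13.5% of all genes were higher and 15.1% lower. In Arntl-/- cells 8 were higher and none lower, where 15.2% of all genes were higher and 17.2% lower. The median log2 change of the 10 genes was 1.01 in WT and 1.16 in Arntl-/- cells, beside 0.00 and -0.01 over all genes analyzed and 0.31 and 0.45 over the 1049 most highly expressed. After the expression correction the median of the 10 genes was 0.57 in WT and 0.52 in Arntl-/- cells. That of the 1049 genes was then 0.01 in each genotype. Slc7a11 had the largest change, 3.68-fold in WT (log2 1.88, counting interval 1.79 to 1.97) and 3.38-fold in Arntl-/- cells (1.76, 1.68 to 1.84).

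Gclm, Nqo1 and Srxn1 also passed the threshold in both genotypes with and without the expression correction. Gclm was 2.33-fold higher in WT and 3.18-fold higher in Arntl-/- cells, and 2.05-fold and 2.66-fold after the correction. Nqo1 was 2.12-fold and 3.22-fold higher (log2 1.08, 0.92 to 1.25, and 1.69, 1.5 to 1.87), starting from its lower level in Arntl-/- cells. Srxn1 was 2.13-fold and 2.25-fold higher. Hmox1 (1.94-fold and 2.21-fold) and Prdx1 (2.11-fold and 2.39-fold) passed without the correction only, being 1.33-fold and 1.29-fold, and 1.45-fold and 1.40-fold, after it. Txnrd1 and Nfe2l2 passed in Arntl-/- cells only (1.67-fold and 1.66-fold), where the WT values were 1.48-fold and 1.43-fold, and neither passed in either genotype after the correction. Keap1 lay just under the threshold in WT cells (log2 0.58) and was 1.44-fold higher in Arntl-/- cells. Gclc was 1.08-fold and 1.31-fold higher. After the correction, 5 genes were past the threshold in WT cells, Keap1 among them, against 13.3% of all genes, and 4 in Arntl-/- cells, against 14.1%.

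**Figure D2:**
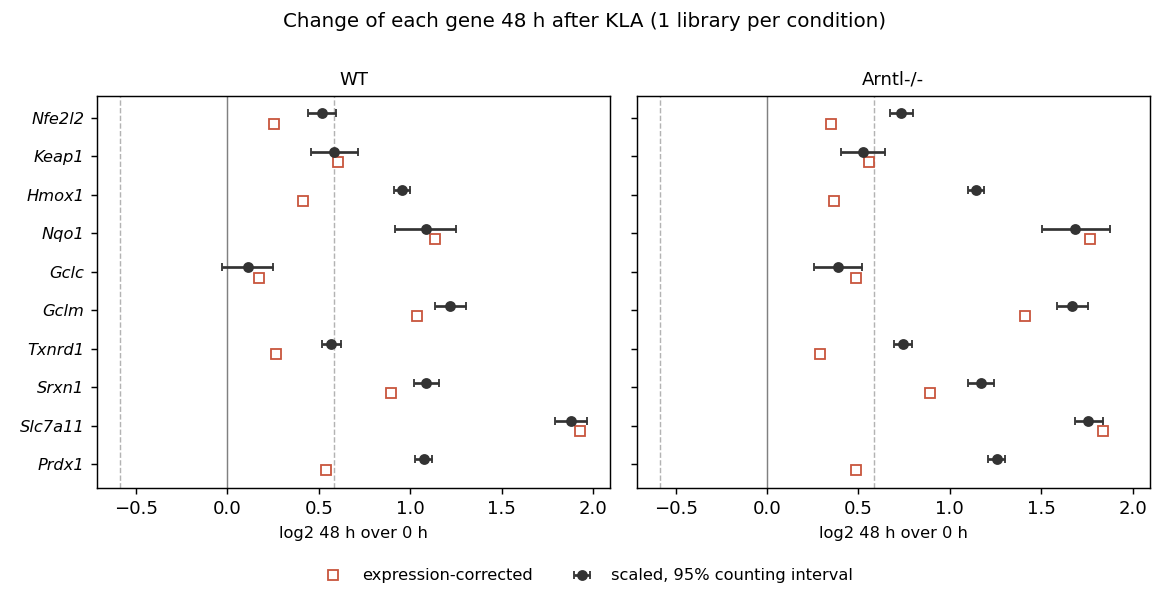
Log2 ratio of the 48 h library to the 0 h library for the 10 genes in WT (left) and Arntl-/- cells (right). Black circles are scaled values with 95% counting intervals, red squares are expression-corrected values, and dashed lines mark 1.5-fold. Slc7a11 (1.88 and 1.76), Gclm, Nqo1 and Srxn1 lie past the line in both versions, and Hmox1, Prdx1 and Txnrd1 move toward 0 after the correction.

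Between the genotypes, 1 of the 10 genes passed the threshold, at 1 of the 4 times. At 0 h, that gene, Nqo1, was at least 1.5-fold lower in Arntl-/- cells and none was higher, against 1.98% of all genes lower and 3.19% higher. Nqo1 was 1.83-fold lower (log2 -0.88, counting interval -1.06 to -0.69), and the expression-corrected value was -0.89. At 6 h none of the 10 genes passed, against 2.03% of all genes higher and 2.64% lower, at 24 h none passed, against 3.59% and 3.11%, and at 48 h none passed, against 5.74% and 5.91%. Nqo1 was nevertheless the lower in Arntl-/- cells at these times too, by 1.48-fold at 6 h (log2 -0.56, -0.74 to -0.39), 1.36-fold at 24 h (-0.44, -0.64 to -0.25) and 1.21-fold at 48 h (-0.27, -0.44 to -0.11).

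Below the threshold, several targets shared a direction. Gclc was lower in Arntl-/- cells at 0, 6 and 24 h (log2 -0.22, -0.33 and -0.39) and not at 48 h (0.05, counting interval -0.10 to 0.20). Gclm was also lower at 0, 6 and 24 h (log2 -0.44, -0.15 and -0.43) and level at 48 h (0.01, -0.07 to 0.09). Srxn1 was lower at 0, 6, 24 and 48 h (log2 -0.35, -0.12, -0.43 and -0.26). These directions held after the expression correction, where at 6 h Gclm was -0.37 and Srxn1 -0.36. Slc7a11 had log2 ratios of 0.06, 0.18, -0.15 and -0.06 in the order of the times, with no common direction. The median over the 10 genes was -0.30, 0.06, -0.37 and -0.07, beside medians of all genes between -0.02 and 0.01. Over the 1049 most highly expressed genes the median was -0.18, 0.33, -0.14 and -0.05. After the correction the median of the 10 genes was -0.06, -0.23, -0.20 and -0.04.

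For the genes with the highest expression, the direction at 6 h depended on the correction. Hmox1 was lower in Arntl-/- cells at 0, 24 and 48 h (log2 -0.37, -0.32 and -0.18) and higher at 6 h (0.32), and after the correction it was -0.05, -0.23, -0.05 and -0.10 in the order of the times. Prdx1 had ratios of -0.38, 0.39, -0.37 and -0.19, which became -0.06, -0.15, -0.11 and -0.11. Txnrd1 had ratios of -0.25, 0.12, -0.37 and -0.08, which became -0.06, -0.24, -0.23 and -0.03. In each case the positive value was the comparison with the deepest library. Nfe2l2 was higher in Arntl-/- cells at each time without the correction (log2 0.14, 0.25, 0.04 and 0.36) and at 0, 24 and 48 h with it (0.31, 0.16 and 0.40), whereas its 6 h value became -0.06. Keap1 had ratios between -0.03 and 0.07, each with a counting interval that contained 0. Exons of Keap1 and Gclm overlap a gene on the other strand in the mm9 annotation (Gm16754 and Gm17494), and counting used both strands, so reads of the partners cannot be told apart.

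**Figure D3:**
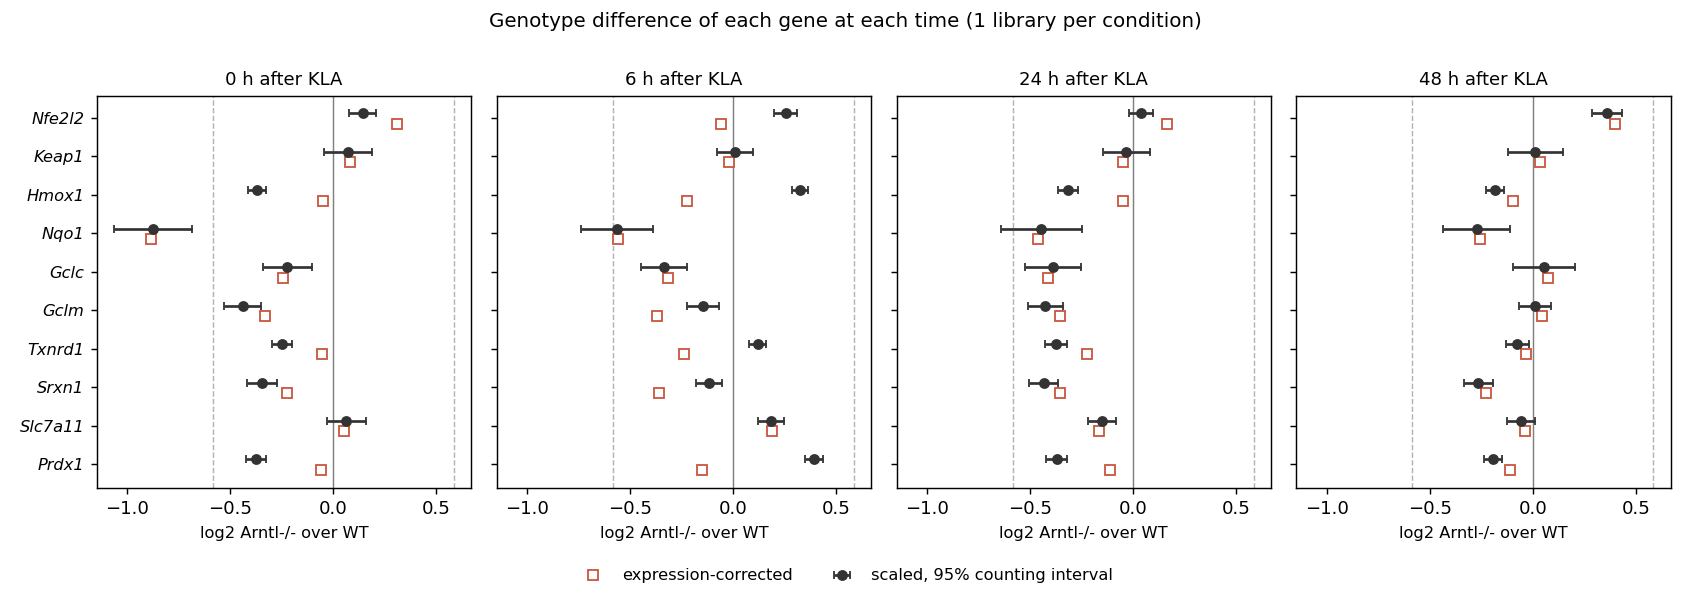
Log2 ratio of Arntl-/- to WT for the 10 genes at each time after KLA, with scaled values as black circles (bars, 95% counting intervals), expression-corrected values as red squares and dashed lines at 1.5-fold. Nqo1 lies below 0 at all 4 times and past the line at 0 h (-0.88), Keap1 lies near 0, and Hmox1, Txnrd1 and Prdx1 change sign with the correction at 6 h.

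RNA of stromal cells, which can persist in marrow cultures, moved with Nqo1 and with most of the other targets. The summed scaled FPKM of 10 stromal markers (collagens Col1a1, Col1a2 and Col3a1, with Sparc, Postn, Fn1, Dcn, Lum, Pdgfra and Pdgfrb) was 619, 734, 842 and 1562 over the WT time course, and over that of Arntl-/- cells it was 449, 486, 517 and 919. It was thus higher in WT cells at each time, by 1.38-, 1.51-, 1.63- and 1.70-fold, and highest at 48 h in each genotype, as Nqo1 was. Of the 10 markers, 8, 9, 9 and 6 were lower in Arntl-/- cells at the 4 times, and none was at the floor of 3 reads in all 8 libraries. Over the 8 libraries, which share their times and genotypes, Pearson's r between the log2 stromal sum and the log2 level was 0.94 for Nqo1 and Srxn1, 0.89 for Txnrd1, 0.88 for Gclm, 0.83 for Hmox1 and Prdx1, 0.81 for Gclc, 0.74 for Slc7a11, 0.65 for Keap1 and 0.38 for Nfe2l2. The macrophage marker sum also was highest at 48 h, with 22500, 16680, 28810 and 39620 over the WT time course and 18870, 22280, 26790 and 35480 over that of Arntl-/- cells. It shared the WT dip at 6 h with Hmox1 and Prdx1, and it was lower in Arntl-/- cells at 0, 24 and 48 h. The part of either sum in these values was not tested, and in bulk samples fewer cells of a type and less RNA per cell cannot be told apart. The sum of the 7 neutrophil markers found was 528, 545, 622 and 928 over the WT time course and 942, 1033, 859.5 and 943 over that of Arntl-/- cells, so it was higher in Arntl-/- cells at each time, least so at 48 h. The markers did not move together, since S100a9 was at 402.9 in Arntl-/- and 163.6 in WT cells at 0 h and at 9 and 10.11 at 48 h, when the sums were nearly all S100a8 (905.3 and 910.3). The neutrophil sum's part in the genotype ratios was not tested. Erythroid and megakaryocyte markers had the largest sum of the lists for other cell types, 2161, 1438, 2117 and 2160 over the WT time course and 1786, 1989, 1712 and 2209 over that of Arntl-/- cells, nearly all of it from the platelet factor gene Pf4, with no common direction between the genotypes. Lymphoid markers summed to at most 18.4 and dendritic cell markers to at most 11.4 in any library.

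**Figure D4:**
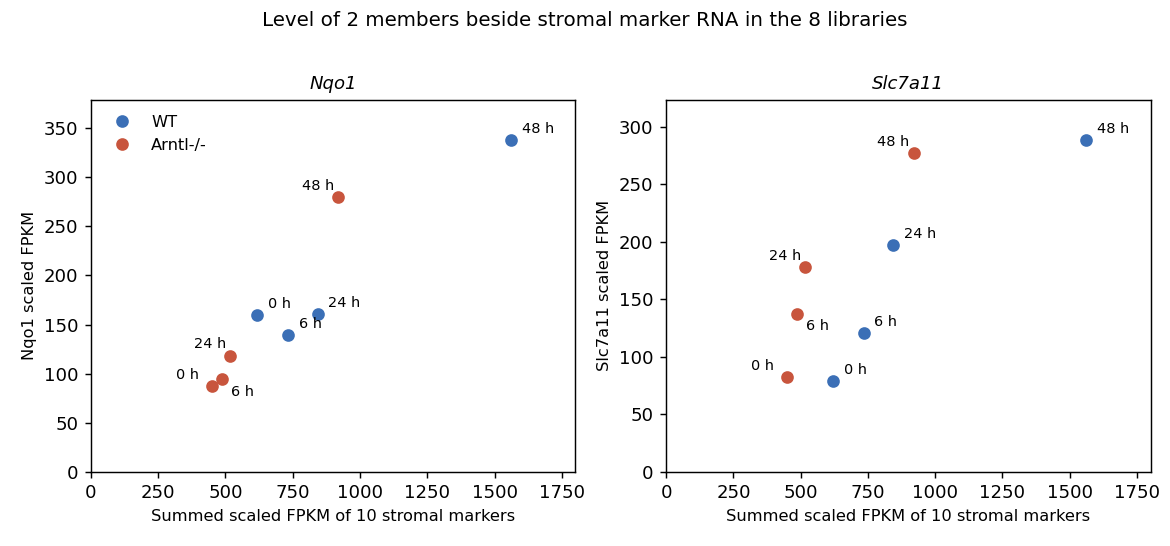
Scaled FPKM of Nqo1 (left) and Slc7a11 (right) against the summed scaled FPKM of 10 stromal markers in the 8 libraries, WT in blue and Arntl-/- in red, labelled by hours after KLA. Both genes are highest in the 48 h libraries, which also hold the most stromal RNA within each genotype (1562 in WT and 919 in Arntl-/- cells), and WT at 0 h has less stromal RNA but more Nqo1 than WT at 6 h.

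Other genes of the pathway were followed in 6 lists of 77 genes, 68 of them analyzed. At 48 h, 31 of the 68 were at least 1.5-fold higher and 0 lower in WT cells, where the shares of all genes were 13.5% and 15.1%. In Arntl-/- cells 35 were higher and 2 lower, where the shares were 15.2% and 17.2%. After the expression correction 21 were higher and 0 lower in WT cells, and 23 higher and 2 lower in Arntl-/- cells. Genes for conjugation, reduction and export of foreign compounds were higher in 12 of 22 in WT and 15 of 22 in Arntl-/- cells, and in 11 and 13 after the correction. Ephx1, an epoxide hydrolase, had a mean log2 change over both genotypes of 1.67, and the aldehyde oxidase gene Aox1 had 1.57, at levels of 4.17 to 15.4 scaled FPKM. The quinone reductase gene Nqo2, unlike Nqo1, was lower at 48 h, with a mean log2 change of -0.57 and WT levels of 118 at 0 h and 86.7 at 48 h. Without the correction, the genes past the threshold downward in Arntl-/- cells were Nqo2 (-0.70) and Osgin1 (-0.83), the latter named after its values were seen, both of this list, whereas after it 1 gene of this list and 1 of the glutathione list passed.

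The other lists are given by their counts of genes higher at 48 h, beside 13.5% of all genes in WT and 15.2% in Arntl-/- cells, or 13.3% and 14.1% after the expression correction. The lists are short, and differences between them were not tested. Of 10 analyzed glutathione genes, 4 were higher in WT and 7 in Arntl-/- cells (4 and 5 after the expression correction), among them Mgst2, a microsomal glutathione transferase, whose WT level was 85.9 at 0 h and 294 at 48 h. Of 10 thioredoxin and peroxiredoxin genes, 2 and 3 were higher (1 and 2 after it, near the shares of all genes), with Prdx6, which reduces phospholipid peroxides, at a mean log2 change of 1.74, the largest of the 68. Of 7 genes for heme and iron handling, 6 and 4 were higher, and 2 and 1 after the expression correction. The ferritin genes Fth1 and Ftl1 are the most highly expressed of these, and the WT level of Fth1 was 11840 at 0 h and 26790 at 48 h. Of 6 genes that supply NADPH, 4 were higher in each genotype, and 2 in each after the correction. Idh1, a cytosolic isocitrate dehydrogenase, was already higher at 24 h, with a mean log2 change of 1.04.

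Among the 13 analyzed regulators of Nrf2, 3 in WT and 2 in Arntl-/- cells were higher at 48 h and none was lower, and 1 and 0 were higher after the expression correction, beside 13.5% of all genes higher in WT and 15.2% in Arntl-/- cells. Sqstm1, whose protein p62 sequesters Keap1, and Nfe2l1, a relative of Nfe2l2, were higher in both (log2 0.85 and 0.62 in WT, 0.88 and 0.62 in Arntl-/-) and were named after their values were seen, and Maff was higher in WT cells only (0.84, against -0.14 in Arntl-/-). Maff, a small Maf protein that pairs with Nrf2, had the highest mean log2 change of the 68 genes at 6 h (0.84), with 33.1 scaled FPKM at 0 h and 65.7 at 6 h in WT cells and 34.4 and 55.9 in Arntl-/- ones. Later its WT level was 54.2 (24 h) and 59.3 (48 h), whereas its Arntl-/- level was 34.5 and 31.2, close to that at 0 h. The genotype log2 ratio of Maff was -0.65 at 24 h and -0.92 at 48 h, and it was nearly unchanged by the expression correction (-0.70 and -0.94). Pgam5, a Keap1-binding phosphatase of mitochondria, and Btrc, part of another ubiquitin ligase of Nrf2, had mean log2 changes of -0.52 and -0.49 at 48 h.

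Between genotypes, few of the 68 genes reached 1.5-fold. In the order of the times, 1, 2, 1 and 0 of them were higher in Arntl-/- cells and 2, 2, 4 and 4 were lower. The shares of all genes were 3.19, 2.03, 3.59 and 5.74% higher and 1.98, 2.64, 3.11 and 5.91% lower, and the 4 lower genes of 68 at 48 h are close to that share. At 0 h, Mgst2 was higher (log2 0.68), and Gss, the glutathione synthetase gene, and the scavenger receptor gene Marco were lower (-0.61 and -0.81), Marco at -0.52 after the expression correction. At 6 h the higher genes were Fth1 (0.64) and the glutathione peroxidase gene Gpx1 (0.60), which were at -0.17 and 0.18 after the correction. Slc40a1, the iron exporter ferroportin, was lower at 6 and 48 h (-0.85 and -0.69), and Ephx1 at 6 h (-0.69). At 24 h Btrc was higher (0.69). At 24 h, Pir, an iron-binding nuclear protein, was lower (-1.17, from at least 43 reads per library), as were Maff, Aox1 (-0.65) and the glutathione transferase gene Gsta3 (-0.66). At 48 h Maff, Txnrd3, a thioredoxin reductase of testis (-0.83), and the mitochondrial thioredoxin reductase gene Txnrd2 (-0.59) were lower beside Slc40a1.

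The genes with a time course most like that of the 8 targets were found from Pearson's r over the 8 libraries with the mean of the targets' standardized log2 profiles. Among the targets, which are part of that mean, r was 0.84 for Slc7a11, 0.80 for Gclc and between 0.962 and 0.995 for the others, and it was 0.71 for Keap1 and 0.62 for Nfe2l2 (0.17 after the expression correction). The 5 other genes with the highest r were Cat (0.993), which encodes the peroxide-degrading enzyme catalase, Mfge8 (0.992), Fgf11 (0.989), Loxl2 (0.989) and Ptgr1 (0.983), and after the correction they were Siglec1 (0.990), Cat (0.986), Fn1 (0.983), Ccdc28a (0.981) and Slc48a1 (0.972). Catalase is in the lists above, and Fn1 is one of the stromal markers. Cat had 517, 470, 659 and 1170 scaled FPKM in WT and 425, 424, 474 and 1080 in Arntl-/- cells. The libraries share time, genotype and the depth trend, so a high r describes a like profile only.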

How the data were processed

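PolyA RNA-seq libraries of WT and Arntl-/- BMDMs, 1 per genotype and time, were grouped by their labels. The authors aligned reads to mm9 with STAR and counted tags on RefSeq exons with HOMER (both strands, set to keep 3 tags per position or fewer, 1 transcript kept per gene), and the FPKM values they deposited are per 10000000 reads and kb of exon. Versions of both tools were not given in the sources used here. Of the value columns, 4 matched no labelled sample and were not used, and 1 line was left out. ChIP-seq samples were not analysed here.

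Whole reads were recovered from FPKM and gene length (100% of low values within 0.05 of a whole number) and served for depth and counting intervals, not for a test. Libraries were scaled by median-of-ratios size factors (0.918 to 1.13). The genes analyzed had 100 or more scaled reads in a WT library. Log2 ratios used a pseudocount of 0.1, and their exact (Clopper-Pearson) intervals at the 95% level rest on reads. The expression correction removed a lowess trend (fraction 0.3) of each library's log2 deviation on mean expression. Scripts were tested on simulated data. The alternatives were FPKM as deposited, upper-quartile scaling, the lowess correction on expression or on gene length, pseudocounts of 1 and 0.01, other gene filters and a 2-fold threshold.

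Named genes are the 10 members, Arntl, and, of the other pathway genes, the 3 highest and 3 lowest in the genotype ratio at each time and in the mean KLA change at 6, 24 and 48 h, with the 5 genes most like the targets; Sqstm1, Nfe2l1 and Osgin1 were named after their values were seen, and single genes of the marker lists are also named. The members, gene lists (stromal markers included) and rules were chosen with earlier results of these data known. Software was Python 3.11.15 with statsmodels 0.14.6, scipy 1.17.1, pandas 2.3.3, numpy 2.4.6 and matplotlib 3.10.9.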

Additional observations from a re-analysis of the deposited data

Results flagged for a closer look

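For 6 of the 10 genes the change from 0 to 6 h after KLA had opposite signs in the genotypes, with 1 library behind each value, and for 3 of them both counting intervals excluded 0. The Arntl-/- log2 change exceeded the WT change by 0.70 for Hmox1, by 0.77 for Prdx1 and by 0.37 for Txnrd1. The other 3 were Nqo1 (log2 -0.20 in WT and 0.11 in Arntl-/- cells), Srxn1 (-0.04 and 0.19) and Nfe2l2 (-0.02 and 0.09), with at least 1 interval that contained 0. The difference was not tested, since each condition had 1 library. Hmox1, Prdx1 and Txnrd1 were among the 1049 most highly expressed, and WT at 6 h was the deepest library. The median log2 change of those 1049 genes was -0.35 in WT and 0.18 in Arntl-/- cells, also with opposite signs. After the expression correction the log2 changes of Hmox1, Prdx1 and Txnrd1 were 0.14, 0.10 and 0.25 in WT and -0.03, 0.00 and 0.07 in Arntl-/- cells. The excess then no longer lay with the Arntl-/- cells.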

How the results depend on the processing

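Replicates could not be paired because the labels carry no replicate numbers, and with 1 library per condition no replicate could be left out. A fit that pairs the genotypes by time, taking the 4 times as replicates of a genotype, was not run. The number of members past 1.5-fold moved by more than 1.5 times in these cases. At a 2-fold threshold it was 0 in place of 1 between genotypes at 0 h and for KLA at 6 h in either genotype, and 1 in place of 3 at 24 h in either genotype. Between genotypes at 6 h it was 1 (Nqo1, lower) in place of 0 with FPKM as deposited, with upper-quartile scaling and with the correction on gene length. In Arntl-/- cells it was 1 in place of 3 at 24 h with FPKM as deposited and with the expression correction, and 4 in place of 8 at 48 h with the expression correction. Smaller moves were to 8 in place of 6 in WT cells at 48 h with the correction on gene length and to 5 with the expression correction or at 2-fold, to 6 in place of 8 in Arntl-/- cells at 48 h as deposited or at 2-fold, to 2 in place of 3 in WT cells at 24 h as deposited or with the expression correction, and to 2 in place of 3 in Arntl-/- cells at 24 h with upper-quartile scaling. No member past the threshold reversed under any alternative. Of 100 member ratios, 15 changed sign with the expression correction, 11 as deposited, 3 with upper-quartile scaling, 1 with the correction on gene length and 0 with either pseudocount.

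Over all genes, the number past 1.5-fold lay between 490 and 3408 by comparison, between 4120 and 7668 with no filter on low values, and between 67 and 1422 at 2-fold. FPKM as deposited moved the median of all genes to -0.13 between genotypes at 6 h, and to 0.13 in WT cells at 6 h, -0.13 in WT cells at 48 h and -0.18 in Arntl-/- cells at 48 h. The split into higher and lower genes was then 477 and 142 in place of 335 and 208 between genotypes at 0 h, 71 and 522 in place of 213 and 277 at 6 h, 1032 and 112 in place of 562 and 376 in WT cells at 6 h, 1028 and 2126 in place of 1412 and 1587 in WT cells at 48 h, and in Arntl-/- cells 248 and 478 in place of 324 and 355 at 6 h and 1061 and 2537 in place of 1599 and 1809 at 48 h. Between genotypes at 6 h it was 123 and 379 with upper-quartile scaling, 182 and 148 with the expression correction and 112 and 308 with the correction on gene length. It was 681 and 259 in WT cells at 6 h with upper-quartile scaling and 386 and 235 in Arntl-/- cells at 6 h with the expression correction. The causes of these shifts were not tested. At least 369 reads lay behind each member value, but 54 of the 100 member ratios left their counting interval with the expression correction, so counting error understates the uncertainty, and the absence of replicates limits every comparison.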
